A study of Saccharomyces cerevisiae with 12 samples.

Results

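The genes described here are 10 heat shock and stress chaperone genes of *Saccharomyces cerevisiae*, chosen by identifier among the 7079 loci with an identifier in the expression tables. They are *HSP12*, *HSP26*, *HSP30*, *HSP42*, *HSP104*, *HSP82*, *SSA1*, *SSA3*, *SSA4* and *HSP78*. RNA was sequenced from 3 cultures in YPD with 1.5 μg/ml Tetracycline (Tet), 3 with Doxycycline (Dox), 3 with 4-Epidoxycycline (4-ED) and 3 control cultures in YPD alone. Tet, Dox and 4-ED are related antibiotics: Dox is an isomer of Tet with a hydroxyl group on a different carbon, and 4-ED is the epimer of Dox at the carbon that bears the dimethylamino group. The sample labels name the strain BY4741 and the study's methods name R1158, a MATa his3 leu2 met15 derivative of BY4741 with the tetracycline-controlled transactivator tTA under the CMV promoter at *URA3*. Every group, the controls included, therefore carried tTA by the methods. *URA3*, which is deleted in BY4741, measured 322 FPKM with Tet, 257 with Dox and 298 with 4-ED, against 230 to 235 FPKM in the controls, so the libraries differ from the BY4741 of the labels in this gene. *LEU2* and *MET17* (also called *MET15*) were listed at 0 in all groups. *HIS3*, whose allele in the BY4741 background is a partial deletion, measured 68.1 FPKM with Tet, 69.6 with Dox and 60.5 with 4-ED, against 63.0 to 64.5 FPKM in the controls. The methods state that all cultures were harvested within the same range of density. Treated cultures grew more slowly than the controls and took longer to reach it. Drug, growth rate and time in culture therefore cannot be told apart in these comparisons.

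Each table holds 1 FPKM value per group (the fragment number scaled for transcript length and library size, a level per length), which combines the 3 libraries of the group. No value per culture was analysed here, so no value below has an error, no difference was tested, and the number of fragments behind each value is unknown. Differences are given as the log2 ratio of treated to control FPKM of the same table, so that a positive ratio means more RNA in treated yeast. Genes above 0 in both groups of a table and averaging 10 FPKM or more over them are called expressed genes below. Genes listed at 0 in either group are thus left out of every share. An expressed gene with a ratio of 0.5 or more in size is called past the fold. This is a rule of size and not of significance. The same 3 control libraries stand in all 3 tables, and the control values of the chaperone genes differed between tables by factors between 0.993 and 1.02.

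Chaperones bind unfolded proteins, keep them from aggregating and help them refold. In yeast, heat and other stresses raise the messages of many chaperones through the activator Hsf1, which binds heat shock elements (inverted repeats of GAA). The same stresses also act through Msn2 and Msn4, which bind the stress response element (STRE). The small heat shock proteins Hsp26 and Hsp42 hold unfolded proteins, the Hsp70 proteins Ssa1, Ssa3 and Ssa4 fold them in an ATP-driven cycle, the Hsp90 protein Hsp82 matures kinases and other clients, and Hsp104 pulls proteins out of aggregates. Chaperone genes is used here as a name for the group. Its label as cytosolic chaperones does not cover all of its members by textbook knowledge. Hsp78 is the Hsp104 relative of the mitochondrial matrix, Hsp30 is a plasma membrane protein that restrains the proton pump Pma1, and Hsp12 is a small protein that associates with membranes.

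Upstream sequence is shown for 4 genes, picked after their values were seen: *HSP30* and *SSA3* had the lowest log2 ratios with Dox, and *HSP42* and *HSP78* the highest. Each runs from 250 bases before to 50 bases after the first base of the coding sequence, in the R64 genome of RefSeq. Capitals mark matches to the STRE (AGGGG or CCCCT) and to the heat shock elements described after them.
HSP30 promoter, chrIII:157058-157357, minus strand: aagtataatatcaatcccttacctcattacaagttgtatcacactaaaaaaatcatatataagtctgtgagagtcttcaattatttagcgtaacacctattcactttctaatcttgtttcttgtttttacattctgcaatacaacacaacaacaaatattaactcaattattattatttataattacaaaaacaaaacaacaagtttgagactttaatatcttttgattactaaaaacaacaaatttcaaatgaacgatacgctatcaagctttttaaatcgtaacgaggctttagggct
SSA3 promoter, chrII:86399-86698, minus strand: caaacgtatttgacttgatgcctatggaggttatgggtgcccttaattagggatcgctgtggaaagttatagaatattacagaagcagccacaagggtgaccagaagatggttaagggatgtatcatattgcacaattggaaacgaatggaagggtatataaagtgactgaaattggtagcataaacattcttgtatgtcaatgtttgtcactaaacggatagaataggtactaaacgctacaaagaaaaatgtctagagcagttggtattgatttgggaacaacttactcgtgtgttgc
HSP42 promoter, chrIV:806371-806670, plus strand: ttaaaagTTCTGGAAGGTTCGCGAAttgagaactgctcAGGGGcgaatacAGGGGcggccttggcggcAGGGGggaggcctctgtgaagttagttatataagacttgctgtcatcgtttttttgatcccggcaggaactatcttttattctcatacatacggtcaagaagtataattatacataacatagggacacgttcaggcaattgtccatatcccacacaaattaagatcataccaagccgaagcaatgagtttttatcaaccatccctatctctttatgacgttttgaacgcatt
HSP78 promoter, chrIV:974194-974493, minus strand: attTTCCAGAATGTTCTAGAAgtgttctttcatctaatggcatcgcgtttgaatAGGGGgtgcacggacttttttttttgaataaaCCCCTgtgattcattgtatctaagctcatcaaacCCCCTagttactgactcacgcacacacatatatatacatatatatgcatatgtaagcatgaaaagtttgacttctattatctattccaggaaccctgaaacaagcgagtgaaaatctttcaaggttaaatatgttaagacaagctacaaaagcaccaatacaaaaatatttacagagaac

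The heat shock element was searched as the pairs GAANNTTC and TTCNNGAA, and as 3 units, in which a GAANNTTC and a TTCNNGAA overlap in the unit they share, so that each such match is also counted under both pairs. STRE matches were counted on both strands, and the pairs read the same on both. In the window of 250 bases before to 50 bases after the start, 7 of the 10 genes held an STRE, a motif found in 21.6% of 6001 promoters. Only *HSP42* and *HSP78* of the 10 held the element of 3 units, present in 0.783% of promoters. *HSP42* and *HSP78* also each held 3 STRE matches. The pair TTCNNGAA was in 4 of the 10 genes and in 12.9% of promoters, and GAANNTTC in 2 of the 10 and in 11.8%. *HSP30*, *SSA3* and *HSP26* held no match in this window. With 500 bases before the start, a window added after the data were seen, *HSP26* held 3 STRE matches and 1 TTCNNGAA, and *HSP104* and *SSA1* also held the element of 3 units, which was in 1.48% of promoters. *HSP30* and *SSA3* held no match in that window either. These are matches of letters, and binding was not measured. The 4 genes shown were picked by their ratios with Dox, and a link between matches and ratios was not tested. With 4-ED, *HSP42* and *HSP78* had log2 ratios of -0.17 and -0.10, and *SSA4*, without the element of 3 units, had 0.14. With Dox, *HSP104* and *SSA1* each had -0.16.

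**Figure D1:**
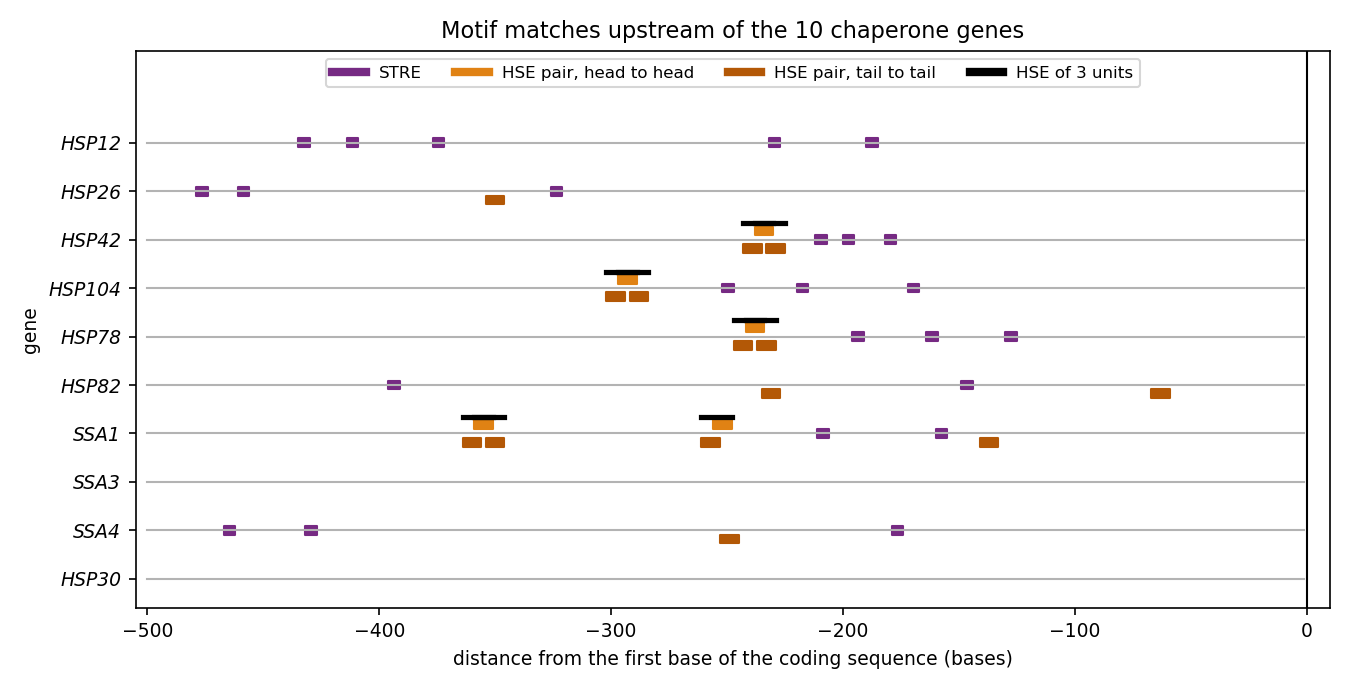
Motif matches in the 500 bases before the coding sequence of each of the 10 genes; the x axis is the distance in bases from the first base of the coding sequence, and coloured blocks are the STRE, the 2 pairs of the heat shock element and, as a bar above the line, the element of 3 units. *HSP30* and *SSA3* have no block, and 8 of the 10 genes have at least 1 STRE, a motif in 34.1% of promoters of this length.

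*HSP12* (YFL014W, chromosome VI, 107256 to 107585) has no usable value. It is listed at 0 in all groups of all 3 tables with the mark that Cuffdiff gives to loci with more fragments than it will process. Of the 19 loci with this mark in every table, 18 lie in the ribosomal DNA of chromosome XII and the other is *HSP12*. The zeros therefore stand for too many fragments and not for a silent gene, and no ratio is given. The other 9 genes had values in every group, all with a mean over 100 FPKM.

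The 9 measured genes spanned a wide range of levels, and their order was nearly the same in every group. *HSP26* was the highest and *HSP78* the lowest of the 9 in all groups, with 56.5 times as many FPKM for *HSP26* as for *HSP78* with Dox, 72.4 times with 4-ED and 69.6 times in the controls of the Dox table. *HSP26* and *HSP30* ranked 9th and 13th of the 7079 loci in the controls. Below them stood *HSP42*, then *SSA1*, *HSP104* and *HSP82*, which lay within a narrow span in the controls, then *SSA4* and *SSA3*. With Tet and with Dox the order was the same as in the controls, and with 4-ED *SSA1* stood below *HSP104* and *HSP82*. *SSA1* and *HSP104* differed by a factor of 1.03 in the controls, and without values per culture such neighbours cannot be ranked beyond their spread.

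**Figure D2:**
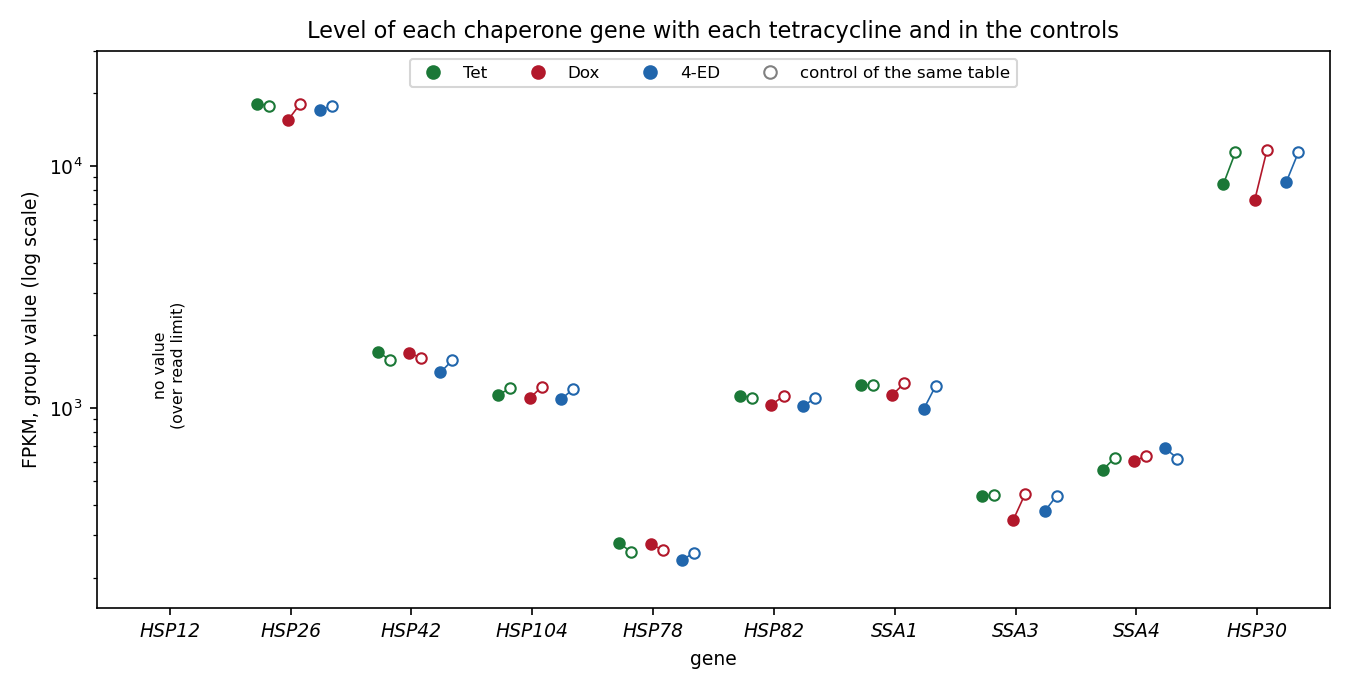
FPKM (log scale) of each gene: filled points are the treated groups (Tet, Dox, 4-ED) and the open point to the right of each is the control of the same table, with 1 value per group and no error. *HSP30* lies below its control with each drug, at 8444 FPKM with Tet, 7284 with Dox and 8604 with 4-ED, and *HSP12* has no value.

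*HSP30* (YCR021C, chromosome III, 156109 to 157107) had the lowest ratio of the 9 with every drug, and with Dox the only 1 of the 9 past the fold. Its level was 7284 FPKM with Dox, against 11634 FPKM in the controls, a log2 ratio of -0.68 or 0.626 times the control. It was 8444 FPKM with Tet, against 11449 FPKM in the controls, a log2 ratio of -0.44. It was 8604 FPKM with 4-ED, against 11407 FPKM in the controls, a log2 ratio of -0.41. *HSP30* was thus lower in all 3 treated groups than in the controls, and it lay just short of the fold with Tet and 4-ED. Among expressed genes, 1.47% had a lower ratio with Dox, 2.64% with Tet and 5% with 4-ED. Among the 310 genes that averaged 1000 FPKM or more in the Dox table, 2.58% had a lower ratio than *HSP30*, and at the same level this share was 3.74% of 321 genes with Tet and 6.77% of 310 with 4-ED. When the median of all genes was set to 0, the ratio of *HSP30* with Tet became -0.51 and passed the fold.

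The small heat shock genes differed less from the controls. *HSP26* (YBR072W, chromosome II, 382030 to 382674) measured 18095 FPKM with Tet, against 17808 FPKM in the controls, a log2 ratio of 0.02 that became -0.05 when the median of all genes was set to 0. It measured 15543 FPKM with Dox, against 18095 FPKM in the controls, a log2 ratio of -0.22, and 17091 FPKM with 4-ED, against 17718 FPKM in the controls, a log2 ratio of -0.05. The value of *HSP26* with Dox was thus the only 1 of the 3 more than a few percent from its control. *HSP42* (YDR171W, chromosome IV, 806621 to 807748) measured 1715 FPKM with Tet, against 1590 FPKM in the controls (log2 ratio 0.11), and 1699 FPKM with Dox, against 1616 FPKM in the controls (log2 ratio 0.07). With 4-ED it measured 1408 FPKM, against 1581 FPKM in the controls, a log2 ratio of -0.17. *HSP42* was therefore on different sides of the control with Dox and with its epimer 4-ED, by ratios that all lay within the central 90% of genes.

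The disaggregases lay close to the controls. *HSP104* (YLL026W, chromosome XII, 88623 to 91349) was lower with each drug, by little, at 1140 FPKM with Tet, against 1209 FPKM in the controls, at 1102 FPKM with Dox, against 1229 FPKM, and at 1092 FPKM with 4-ED, against 1202 FPKM. Its log2 ratios were -0.09 (Tet), -0.16 (Dox) and -0.14 (4-ED). *HSP78* (YDR258C, chromosome IV, 971808 to 974243), the mitochondrial relative, had 277 FPKM with Tet, against 256 FPKM in the controls, 275 FPKM with Dox, against 260 FPKM, and 236 FPKM with 4-ED, against 254 FPKM. Its log2 ratios of 0.11, 0.08 and -0.10 for Tet, Dox and 4-ED were close to those of *HSP42*. For *HSP78*, 57.6% of genes had a lower ratio with Tet, 70.6% with Dox and 33.4% with 4-ED, which places it near the middle of the tables.

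*HSP82* (YPL240C, chromosome XVI, 96496 to 98625), the inducible Hsp90 gene, measured 1130 FPKM with Tet, against 1106 FPKM in the controls, 1036 FPKM with Dox, against 1123 FPKM, and 1023 FPKM with 4-ED, against 1099 FPKM. Its log2 ratios were 0.03 with Tet (-0.04 when the median of all genes was set to 0), -0.12 with Dox and -0.10 with 4-ED. The coding sequences of *HSP82* and its constitutive copy *HSC82* were identical at 91.7% of aligned positions, but only 2.09% of the 76-base windows of *HSP82*, the read length of the study, occur exactly in *HSC82*. *HSC82* itself had log2 ratios of 0.10 (Tet), -0.07 (Dox) and 0.02 (4-ED). The sum of *HSP82* and *HSC82* had log2 ratios of 0.07, -0.09 and -0.04 in the same order. It hardly depends on how shared reads were divided if all of them were counted, which was not examined.

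Of the Hsp70 genes, *SSA1* (YAL005C, chromosome I, 139503 to 141431) measured 1247 FPKM with Tet, against 1251 FPKM in the controls, 1137 FPKM with Dox, against 1271 FPKM, and 993 FPKM with 4-ED, against 1242 FPKM. Its log2 ratios were -0.00378 (Tet), -0.16 (Dox) and -0.32 (4-ED), and 8.51% of genes had a lower ratio with 4-ED. *SSA1* cannot be separated cleanly from *SSA2*, a constitutive copy with which it shares 96.4% of aligned coding positions, because 51.7% of its 76-base windows occur exactly in *SSA2*. *SSA2* was also lowest with 4-ED, at 302 FPKM, against 442 FPKM in the controls, a log2 ratio of -0.55. The sum of *SSA1* and *SSA2* had log2 ratios of -0.03 (Tet), -0.19 (Dox) and -0.38 (4-ED). This sum hardly depends on how shared reads were divided if all of them were counted, which was not examined. *SSA1* overlaps the locus YAL004W, which was listed at 3.26 FPKM with 4-ED and at 0 with Tet, with Dox and in the controls.

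*SSA3* and *SSA4*, which are known as the stress-inducible Hsp70 genes, had no 76-base window elsewhere in the genome. *SSA3* (YBL075C, chromosome II, 84499 to 86448) measured 345 FPKM with Dox, against 445 FPKM in the controls, a log2 ratio of -0.36 that 8.29% of genes fell below. It measured 435 FPKM with Tet, against 438 FPKM in the controls (log2 ratio -0.00814), and 376 FPKM with 4-ED, against 435 FPKM (log2 ratio -0.21). *SSA4* (YER103W, chromosome V, 364589 to 366517) measured 555 FPKM with Tet, against 625 FPKM in the controls (log2 ratio -0.17), and 606 FPKM with Dox, against 635 FPKM (log2 ratio -0.07). With 4-ED it measured 683 FPKM, against 621 FPKM in the controls, and was the only 1 of the 9 above its control there, by a log2 ratio of 0.14. The 3 Hsp70 genes thus had their lowest ratio with a different drug each: *SSA1* with 4-ED, *SSA3* with Dox and *SSA4* with Tet.

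**Figure D3:**
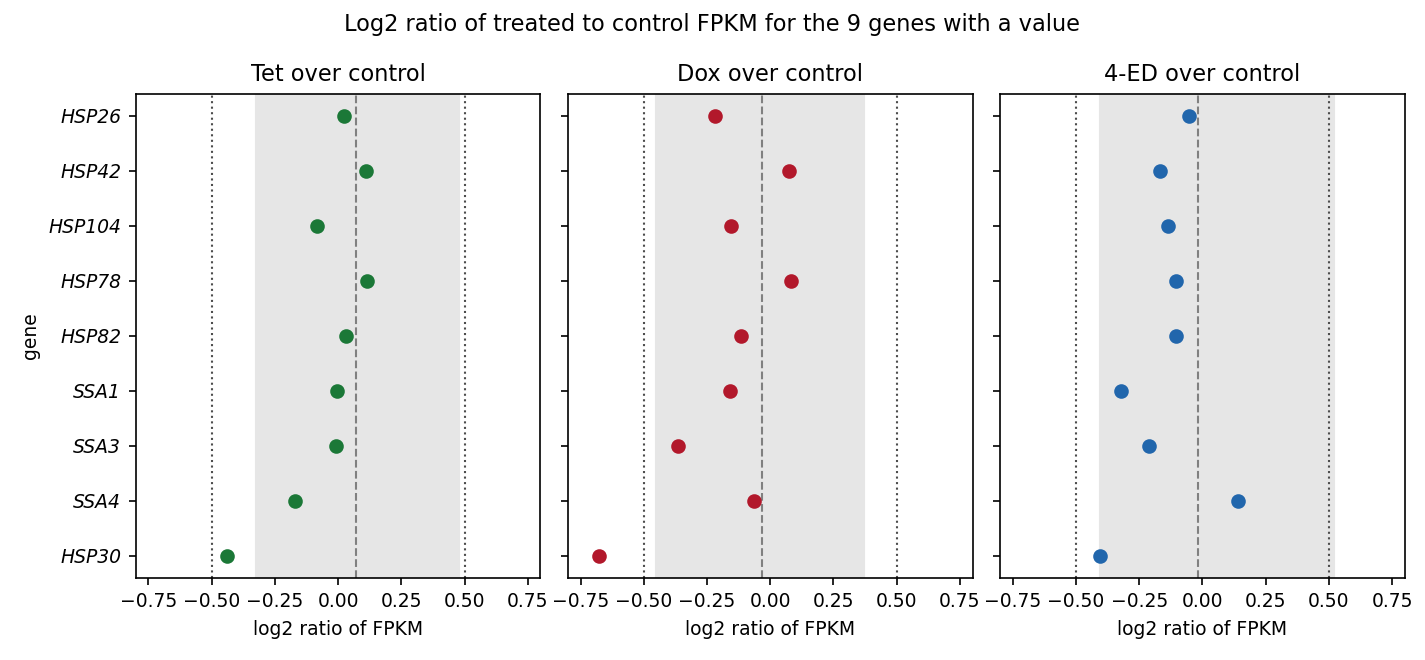
Log2 ratio of treated to control FPKM for the 9 genes with a value, in 1 panel per drug; grey spans the central 90% of expressed genes, the dashed line is their median and dotted lines mark 0.5 in either direction. The point of *HSP30* is the lowest in each panel, at -0.44 (Tet), -0.68 (Dox) and -0.41 (4-ED), outside the grey span with Tet and Dox and at its lower edge with 4-ED, and the other 8 points lie in the grey span.

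Of the 9 measured chaperone genes, 0 were past the fold in the higher direction with any drug, and *HSP12* could not be read. In the controls *HSP26* and *HSP30* already ranked 9th and 13th of 7079 loci. Whether such levels limit a further rise was not tested. With Tet, 0 of the 9 were past the fold, and 6.34% of the 5898 expressed genes were (1.93% lower and 4.41% higher). With Dox, 1 of the 9 was past the fold, in the lower direction: *HSP30*, which encodes the plasma membrane protein. Of 5913 expressed genes, 5.92% were past the fold with Dox (3.57% lower and 2.35% higher). With 4-ED, 0 of the 9 were past the fold, and 8.15% of 5875 expressed genes were (2.74% lower and 5.41% higher). At a limit of 0.3, 1 of the 9 was called with Tet beside 22.2% of expressed genes, 2 with Dox beside 20.9% and 2 with 4-ED beside 21.9%, all lower. At a limit of 1, 0 of the 9 were called with any drug, beside 0.797% (Tet), 0.812% (Dox) and 1.43% (4-ED) of expressed genes. These counts are too small to set the genes apart from the rest of the tables. The median log2 ratio of the 9 was -0.00378 with Tet beside 0.07 for all genes, -0.16 with Dox beside -0.03, and -0.14 with 4-ED beside -0.02. Without *HSP30* the medians of the other 8 were 0.01 (Tet), -0.14 (Dox) and -0.12 (4-ED). A ratio below 0 was found for 5 of the 9 with Tet beside 35.7% of all genes, for 7 with Dox beside 56.5%, and for 8 with 4-ED beside 53.2%.

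**Figure D4:**
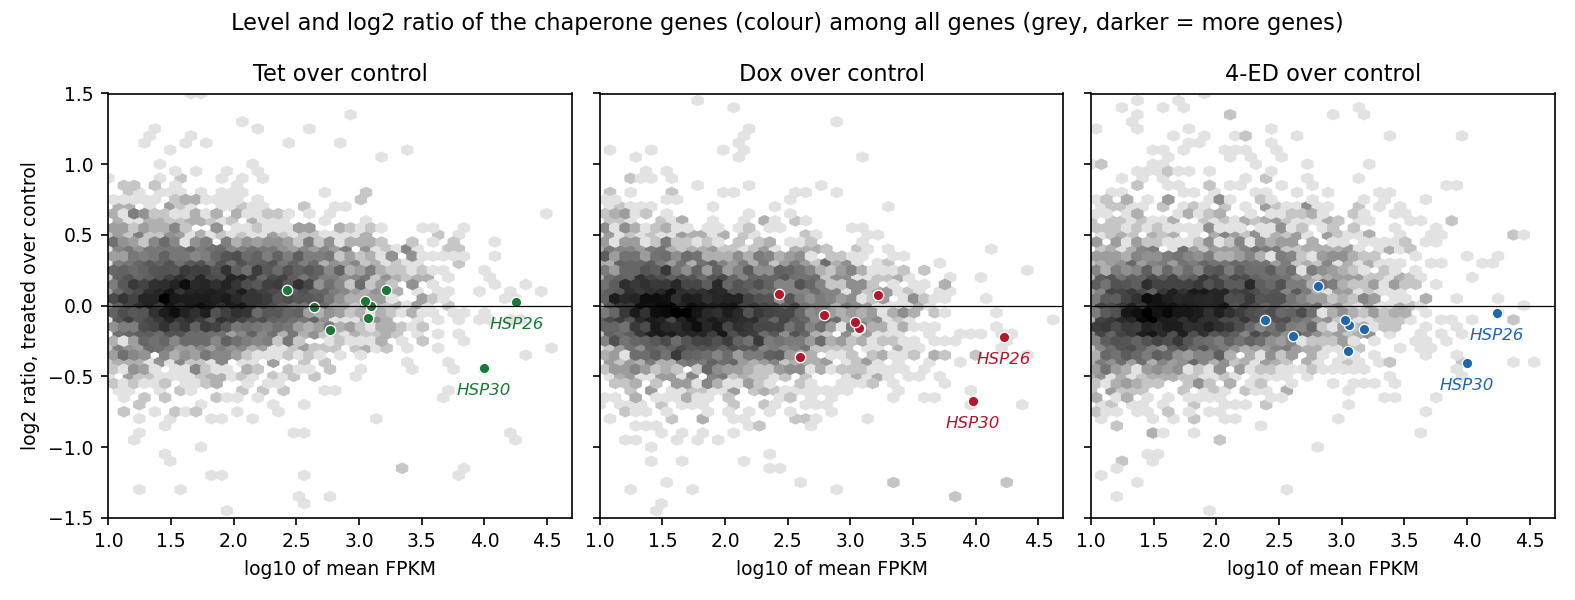
Log2 ratio of treated to control FPKM against the log10 of the mean FPKM of both groups, in 1 panel per drug; grey hexagons are all expressed genes (darker where there are more, ratios beyond 1.5 in size not drawn) and coloured points are the 9 chaperone genes. *HSP26* and *HSP30* stand at the right-hand end among the most abundant messages, and *HSP30* is at the lower edge with Dox, at -0.68.

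The drugs were compared through their ratios to the shared controls, at the same dose of 1.5 μg/ml, over 3 pairs of drugs and 9 genes. Of these 27 differences, 0 reached 0.5 in size, a size reached by 6.55% of genes for Dox minus 4-ED, 2.33% for Dox minus Tet and 4.57% for 4-ED minus Tet. No test or interval was computed for a difference, and a small one does not show that the drugs act alike. The median difference over all genes was -0.04 for Dox minus 4-ED, -0.12 for Dox minus Tet and -0.08 for 4-ED minus Tet. The differences below include this general shift. Between Dox and its epimer 4-ED the largest difference was in *HSP30*, at -0.68 with Dox and -0.41 with 4-ED. This difference of -0.27 was one that 16.1% of genes fell below. *HSP42* differed in the other direction, at 0.07 with Dox and -0.17 with 4-ED, a difference of 0.24 that 88.4% of genes fell below. Between Dox and Tet the largest was *SSA3*, at -0.36 with Dox and -0.01 with Tet, a difference of -0.36 that 5.4% of genes fell below. Between 4-ED and Tet the largest were in *SSA1* and *SSA4*. *SSA1* stood at -0.32 with 4-ED and -0.00378 with Tet, a difference of -0.32 that 10.4% of genes fell below. *SSA4* stood at 0.14 with 4-ED and -0.17 with Tet, a difference of 0.31 that 95.1% of genes fell below. *HSP30* was nearly the same in this pair, with a difference of 0.03.

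Partner genes of the chaperones were read from lists chosen for their roles. Among 15 other genes of the Hsp70 system, 0 were past the fold with Tet (6.34% of all expressed genes) and Dox (5.92%), and 3 were past it in the lower direction with 4-ED (2.74%). They were *YDJ1* (a J-protein that stimulates the Ssa proteins), *SSA2* and *SSB1* (a ribosome-associated Hsp70), of which *YDJ1* and *SSB1* are named after their values were seen. Their log2 ratios with 4-ED were -0.69, -0.55 and -0.54 in that order. *SSB2*, the close relative of *SSB1*, was not past the fold. It measured 180 FPKM with 4-ED, against 195 FPKM in the controls, a log2 ratio of -0.11. How reads shared by *SSB1* and *SSB2* were divided was not examined, so the ratio of *SSB1* alone is uncertain. *SSE2*, a nucleotide exchange factor of Hsp70, had the lowest median over the drugs of this list, with log2 ratios of -0.25 (Tet), -0.46 (Dox) and -0.35 (4-ED), and *DJP1*, a J-protein of peroxisomal import, had the highest, with 0.30, 0.15 and 0.30. Of the Hsp90 partners, 12 or 13 of 13 were expressed genes in each table. Of these, 0 were past the fold with Tet (6.34% of all expressed genes) and Dox (5.92%). With 4-ED 1 of 12 was past it, in the higher direction, beside 5.41% of all expressed genes. It was *TAH1* of the R2TP complex, with log2 ratios of 0.39 (Tet), 0.30 (Dox) and 0.60 (4-ED). Of the Hsp90 partners that were expressed genes in every table, *CPR6*, a cyclophilin that binds Hsp90, had the lowest median over the drugs. Its log2 ratios were -0.19 (Tet), -0.24 (Dox) and -0.41 (4-ED).

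*BTN2* and *CUR1*, related genes whose products sort misfolded proteins to deposit sites, stood at opposite ends of their list. *BTN2* measured 544 FPKM with Dox, against 355 FPKM in the controls, a log2 ratio of 0.62, and had log2 ratios of 0.27 with Tet and 0.31 with 4-ED. *CUR1* measured 25.3 FPKM with 4-ED, against 47.8 FPKM in the controls, a log2 ratio of -0.91, and had log2 ratios of -0.62 with Tet and -0.21 with Dox. *BTN2* was thus above and *CUR1* below the controls with every drug. Of the 8 genes of this list, 7 were expressed genes in each table, and 1 was past the fold with each drug. It was *CUR1*, lower, with Tet and 4-ED, beside 1.93% and 2.74% of expressed genes, and *BTN2*, higher, with Dox, beside 2.35%. The medians of the list were -0.05 (Tet), -0.13 (Dox) and -0.04 (4-ED), so *BTN2* and *CUR1* do not stand for the list. Of the 6 matrix chaperones listed beside *HSP78*, 0 were past the fold with any drug, beside 6.34% (Tet), 5.92% (Dox) and 8.15% (4-ED) of expressed genes. By their median over the drugs, *MGE1*, the nucleotide exchange factor, was the highest (log2 ratios 0.14, 0.02 and 0.17 for Tet, Dox and 4-ED) and *HSP60*, the chaperonin, the lowest (0.04, -0.19 and -0.46).

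Among the regulators, *HSF1* lay near its controls, with log2 ratios of 0.15 (Tet), 0.03 (Dox) and 0.05 (4-ED). Past the fold was 1 of 8 expressed regulators with Tet, 1 of 9 with Dox and 1 of 8 with 4-ED. Each time this was *MSN4*, in the lower direction, beside 1.93% (Tet), 3.57% (Dox) and 2.74% (4-ED) of expressed genes. It measured 47.9 FPKM with Tet, against 68.8 FPKM in the controls (log2 ratio -0.52), 47.8 FPKM with Dox, against 69.9 FPKM (log2 ratio -0.55), and 44.1 FPKM with 4-ED, against 68.4 FPKM (log2 ratio -0.63). The ratios of its relative *MSN2*, a gene picked after the values were seen, were -0.05, -0.21 and -0.09 on the same scale and in the same order.

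The 25 general stress genes listed as targets of Msn2 and Msn4 had lower medians than the chaperone genes, at log2 ratios of -0.11 (Tet), -0.26 (Dox) and -0.25 (4-ED). A ratio below 0 was found for 16 of the 25 with Tet beside 35.7% of all expressed genes, for 24 with Dox beside 56.5%, and for 20 with 4-ED beside 53.2%. With Dox, 6 of the 25 were past the fold, all lower, beside 3.57% of expressed genes in that direction. With Tet, *SIP18*, a hydrophilin of desiccation tolerance, was past the fold higher and *ALD3*, a stress-induced aldehyde dehydrogenase, lower, beside 4.41% and 1.93% of expressed genes in those directions. With 4-ED, 2 were past the fold, both lower, beside 2.74% of expressed genes, *ALD3* and, named after its values were seen, *GLK1*, the glucokinase. *ALD3* had log2 ratios of -0.56 (Tet), -0.75 (Dox) and -0.84 (4-ED), and *SIP18* of 0.67, 0.27 and 0.49. Around Hsp30, *PMA1*, the proton pump, had log2 ratios of 0.19 (Tet), -0.000823 (Dox) and -0.24 (4-ED). *PMP2*, which encodes a small proteolipid of the same pump, had the lowest median over the drugs of its list of 5. Its log2 ratios were -0.40 (Tet), -0.57 (Dox) and -0.52 (4-ED). *PMP2* was the only 1 of the 5 past the fold, lower, with Dox and 4-ED, beside 3.57% and 2.74% of expressed genes. The Hsp30 relatives *MRH1* and *YRO2* are named after their values were seen. *MRH1* had log2 ratios of -0.10 (Tet), -0.07 (Dox) and -0.32 (4-ED), and *YRO2* of -0.19, -0.08 and -0.42. The medians of the whole list were -0.10 (Tet), -0.08 (Dox) and -0.33 (4-ED), so *PMP2* does not stand for the list.

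**Figure D5:**
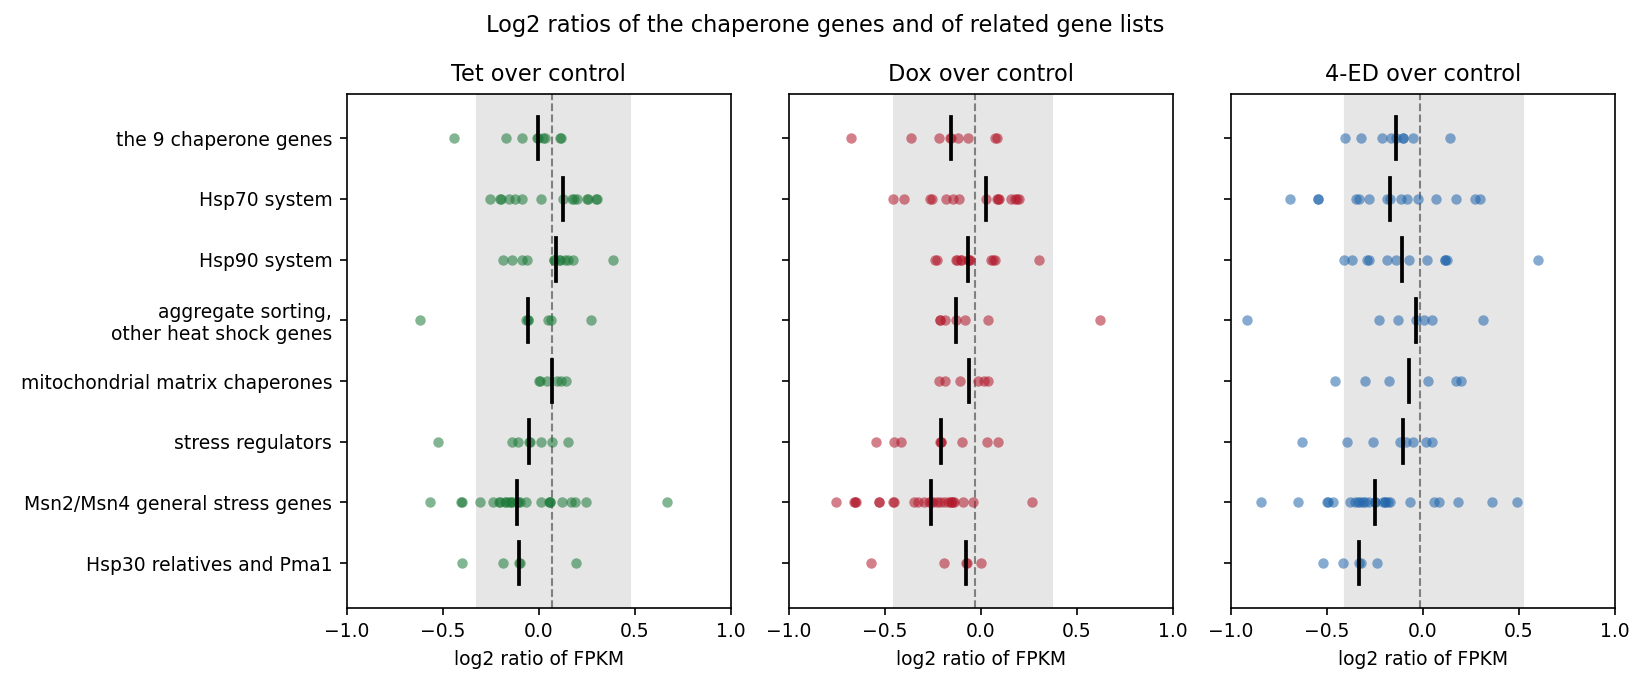
Log2 ratio of treated to control FPKM of the 9 chaperone genes (top row) and of the expressed genes of each related list, in 1 panel per drug; black bars are medians, the grey span holds the central 90% of all genes and the dashed line is their median. The row of Msn2 and Msn4 genes has its median at -0.26 with Dox and -0.25 with 4-ED, left of the dashed line.

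The genes whose 3 log2 ratios lay nearest to those of *HSP30*, by Euclidean distance among the 5833 genes that were expressed genes in every table, were *RAD16*, *ROY1*, *PRM5*, *BAP2* and *PUT1*, at distances of 0.04, 0.05, 0.06, 0.08 and 0.08. *RAD16* acts in nucleotide excision repair, *PRM5* encodes a membrane protein, *BAP2* a branched-chain amino acid permease and *PUT1* proline oxidase. Their levels were far below that of *HSP30*, between 15.0 FPKM for *RAD16* and 308 FPKM for *BAP2* with Dox. The likeness rests on 3 ratios that share 1 set of controls and is a description only.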

How the data were processed

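RNA of 12 cultures was sequenced, 3 for each of Tet, Dox, 4-ED and control. Per the methods and the submitters' processing notes, the authors aligned reads with Bowtie2 (R64 genome) and quantified genes in Cuffdiff with Ensembl gene models. Tool versions are not given in the sources used here, and neither is the strand setting. The deposited FPKM values are 1 per group and table, scaled by the authors' Cuffdiff run within each table. Cuffdiff's own fold changes, test statistics, p-values and q-values in the tables were not used, nor was 1 row without an identifier. Log2 ratios were computed without a pseudocount for loci above 0 in both groups. Samples were grouped by their titles. The step was tested on simulated data with 200 changed genes. Named genes are the 10 members, their near-identical copies, the extremes of each list by median ratio and any list gene past 1 on the log2 scale (both among expressed genes), the strain markers and the 5 genes nearest in pattern. *YDJ1*, *SSB1*, *SSB2*, *GLK1*, *MSN2*, *MRH1* and *YRO2* were named outside this rule, after their values were seen. The members and lists were chosen with earlier results of these data known. Of the 7079 loci, 5999 matched a RefSeq locus tag of R64 and 5363 had the same start and end there, including all 10 members, whose positions are 1-based. Python 3.11.15, numpy 2.4.6, pandas 2.3.3, biopython 1.88 and matplotlib 3.10.9 were used.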

Additional observations from a re-analysis of the deposited data

How the results depend on the processing

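The log2 ratios of the 9 genes moved by at most 0.000932 with a pseudocount of 1 FPKM, by at most 0.00279 with controls averaged over the 3 tables, and by at most 0.07 when centred on the median of all genes, which turned the sign of *HSP26* and *HSP82* with Tet. The count of genes past the fold with Tet, 0 of 9, became 1 with centring and 1 at a limit of 0.3 (*HSP30* both times). The count with Dox, 1 of 9, became 2 at a limit of 0.3 (*SSA3* and *HSP30*) and 0 at a limit of 1. The count with 4-ED, 0 of 9, became 2 at a limit of 0.3 (*SSA1* and *HSP30*). At that limit of 0.3, 22.2% of all genes were called with Tet, 20.9% with Dox and 21.9% with 4-ED. A minimum mean of 100 FPKM or none could change no count and no median, because all 9 genes had a mean over 100 FPKM. With the 250 bases before the start alone, the share of promoters with an STRE was 18.8% and the same 7 of the 10 genes held one. With 500 bases before the start, a window chosen after seeing the data, the share was 34.1% for the STRE against 21.6% in the main window, 19.2% against 11.8% for GAANNTTC and 21.2% against 12.9% for TTCNNGAA. No paired analysis was possible because the tables give 1 value per group, and for the same reason no library could be left out and no spread between cultures was available.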

Other observations

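*SIP18*, from the list of general stress genes, was more abundant than any of the 9 chaperone genes in every group. It measured 36852 FPKM with Tet, 28365 FPKM with Dox and 32354 FPKM with 4-ED, against 23018 to 23564 FPKM in the controls. *HSP26* had 18095, 15543 and 17091 FPKM in the same 3 treated groups, against 17718 to 18095 FPKM in the controls. The messages of this hydrophilin and of a small heat shock protein were thus among the most abundant in the tables in the untreated cultures too.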
